A study of Mus musculus with 2 samples.

Results

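Cxcr4, the gene for the chemokine receptor CXCR4, was followed through the leukocytes of the mouse colon: 1 gene of the 32285 in the deposited expression table, picked by its symbol and read in each of the 17 deposited clusters, in the 5XFAD and the WT library, and in B cells that did or did not give a Cxcr4 molecule. Live CD45+ cells had been sorted from colons of female littermates aged 9 months. The 5XFAD group was 1 library of cells pooled from 3 mice, and the WT group was likewise 1 library from 3 mice, so mouse-to-mouse spread was not measured and no test between genotypes was possible. 5XFAD mice carry mutant human transgenes under a Thy1 promoter, which is active mainly in neurons, and are used as a model of amyloid deposition in the brain; WT littermates lack the transgenes. Each library held 3443 cells, with 18604847 unique molecular identifiers (UMIs, each standing for 1 captured RNA molecule) in the 5XFAD library and 17939499 in the WT library. Median depth was 5209 UMIs per cell in the 5XFAD library and 4938 in the WT library. The libraries shared 3 cell barcodes, and 0 5XFAD cells but 106 WT cells had 2500 or more genes detected. Ptprc, which encodes CD45, gave a UMI in 91.3% of 5XFAD cells and 97.4% of WT cells.

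CXCR4 is a receptor coupled to inhibitory G proteins; its ligand is CXCL12, made mainly by stromal cells. CXCL12 holds developing B cells in the bone marrow, guides plasma cells and draws germinal centre B cells into the dark zone, while the receptor is taken out of the membrane after phosphorylation by GRK kinases, arrestin binding and ubiquitination by ITCH. Lymphocytes weigh this retention signal against S1PR1, the sphingosine-1-phosphate receptor that leads them out of tissue. FOXO1, a transcription factor active in resting lymphocytes, is known to support expression of S1pr1, Klf2, Ccr7 and Cxcr4.

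On the GRCm38 assembly (GENCODE M21) Cxcr4 lies on the minus strand of chromosome 1, from 128588199 to 128592293, with 2 exons. Exon 1 holds the 5′ untranslated region and the first codons, and exon 2 holds the rest of the coding sequence and the 3′ untranslated region, where a 3′ library mostly reads. The promoter is shown because Cxcr4 was highest in a B cell cluster marked by heat shock and AP-1 genes. The 250 bases before the RefSeq start of Cxcr4 (chr1:128592300-128592549, minus strand) and of Hspa1a and Jun, leading genes of that cluster (chr17:34972157-34972406 and chr4:95052223-95052472, both minus strand), follow from RefSeq's promoter table for GRCm38.p6, with heat shock element matches in capitals and, in Cxcr4 only, the NRF1 and TATA matches too.
Cxcr4: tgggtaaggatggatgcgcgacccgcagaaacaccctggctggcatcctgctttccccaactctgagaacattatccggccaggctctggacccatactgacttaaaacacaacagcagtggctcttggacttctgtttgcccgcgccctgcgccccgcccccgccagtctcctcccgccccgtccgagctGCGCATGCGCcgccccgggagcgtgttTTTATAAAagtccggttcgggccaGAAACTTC
Hspa1a: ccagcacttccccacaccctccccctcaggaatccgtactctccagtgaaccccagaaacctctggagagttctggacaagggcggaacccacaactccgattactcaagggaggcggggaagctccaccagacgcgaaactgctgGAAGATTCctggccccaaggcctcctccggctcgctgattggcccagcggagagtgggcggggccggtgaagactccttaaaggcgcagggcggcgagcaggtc
Jun: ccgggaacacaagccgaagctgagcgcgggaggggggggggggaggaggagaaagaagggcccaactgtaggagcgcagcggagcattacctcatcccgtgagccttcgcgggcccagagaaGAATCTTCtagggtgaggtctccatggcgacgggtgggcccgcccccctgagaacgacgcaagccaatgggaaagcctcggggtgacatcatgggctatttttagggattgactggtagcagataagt

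Motifs were searched on both strands of the same 250-base window of 32851 RefSeq promoters. The NRF1 motif, a site of an activator of housekeeping and mitochondrial genes and the first run of capitals above, was 59 to 50 bases before the Cxcr4 start and in 0.782% of all promoters. The TATA motif TATAAA was 30 to 25 bases before the start, with its reverse complement overlapping it, and in 12.4% of promoters. The heat shock element GAANNTTC stood 8 to 1 bases before the start as GAAACTTC, and was in 6.69% of promoters. GAANNTTC was also 104 to 97 bases before the Hspa1a start and 128 to 121 bases before the Jun start. Hspa1b had it at the same place as Hspa1a. Hsph1 and Klf2, also leading genes of that B cell cluster, had no match to GAANNTTC. The GC box GGGCGG occurred 3 times on the reverse strand of the Cxcr4 window, 1 of them overlapping the NRF1 motif by a base, and was in 32.7% of promoters. The AP-1 motif TGANTCA (6.75% of promoters) and the forkhead motif GTAAACA (3.17%) had no match in the Cxcr4 window. A match is a run of letters and was not tested as a binding site.

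Cxcr4 was detected in every cluster and was highest in B cell cluster 5 in both libraries; it was lowest in ILC2-like cluster 9 in the 5XFAD library and in gamma delta T cell-like cluster 13 in the WT library. Its level is given as CPM, the Cxcr4 UMIs per 1000000 UMIs of the cluster in that library, with 95% exact Poisson intervals, which like all intervals here cover counting error only. Cluster 5, B cells led by Hspa1a, Hspa1b, Jun and Klf2, had 422 CPM in the 5XFAD library (371 to 478) and 525 CPM in the WT library (492 to 559). This was the highest level in both libraries, with intervals apart from the next cluster in each. The clusters were drawn by the authors from all genes, so the order of clusters is a description. Against B cells of clusters 0 to 4, cluster 5 was higher by log2 1.08 (0.89 to 1.27) in the 5XFAD library and 1.18 (1.07 to 1.28) in the WT library.

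The remaining B cell clusters lay between 168 and 276 CPM. Clusters 0, 1, 2, 3 and 4 had 221, 168, 219.5, 193 and 209 CPM in the 5XFAD library, and 276, 210.2, 220.1, 221 and 203 CPM in the WT library. In the 5XFAD library cluster 1 was the lowest (155 to 182), with an interval apart from those of clusters 0, 2 and 4. In the WT library cluster 0 was the highest (258 to 295), with an interval apart from those of clusters 1 to 4. Clusters 6 and 7 also carried all 7 B cell markers, Cd79a, Ms4a1 and Pax5 among them, at 50 CPM or more. Cluster 6, led by Jchain, Igha and Ighg2b, genes of antibody secretion and class switching, had 273 CPM of Cxcr4 in the 5XFAD library and 225 CPM in the WT library. Over clusters 0 to 4 that was a log2 ratio of 0.45 (0.27 to 0.63) in the 5XFAD library and -0.05 (-0.29 to 0.18) in the WT library. Cluster 7, led by the activation-induced genes Egr1, Egr2, Egr3 and Myc, had 210.5 CPM in the 5XFAD library and 215 CPM in the WT library.

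**Figure D1:**
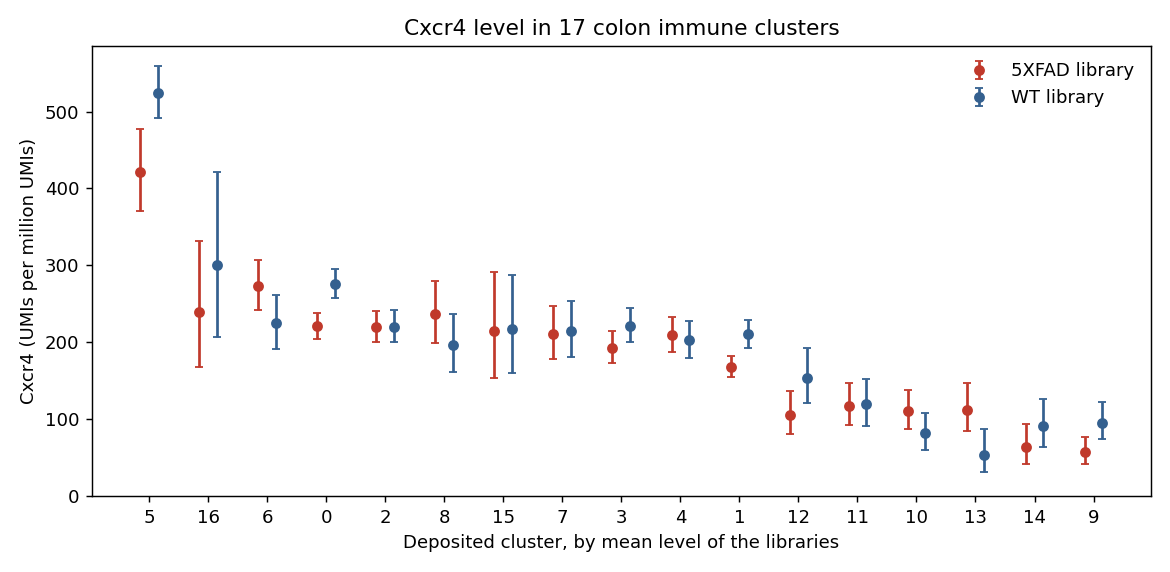
Cxcr4 level in CPM (y axis) for each deposited cluster (x axis, by the mean of both libraries); points are the 5XFAD (left) and WT (right) library, bars the 95% exact Poisson interval for counting error. Cluster 5 stands highest in both libraries at 422 and 525 CPM, and clusters 12, 11, 10, 13, 14 and 9 lie at or below 154 CPM.

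Levels in the T and innate lymphoid clusters (8 to 14 and 16) ran from 57.5 to 240.0 CPM in the 5XFAD library and from 54.1 to 300.3 CPM in the WT library. Cluster 8, with all 5 regulatory T cell markers (Foxp3, Il2ra, Ctla4, Ikzf2 and Tnfrsf4) and called regulatory T cell-like, had 237 CPM in the 5XFAD library and 197 CPM in the WT library. T cell-like cluster 10, led by Il17a and Cd40lg, had 110.2 CPM in the 5XFAD library and 81.7 CPM in the WT library. Regulatory T cell-like cells exceeded cluster 10 by log2 1.11 (0.69 to 1.52) in the 5XFAD library and 1.27 (0.77 to 1.78) in the WT library. The top 5XFAD cell of cluster 10 held 12 of its 78 Cxcr4 UMIs, and the intervals do not allow for such unevenness between cells. Cluster 14, left unnamed with Lef1 and Cd8b1 among its leading genes, had 64.5 CPM in the 5XFAD library and 90.8 CPM in the WT library. Gamma delta T cell-like cluster 13 had 113 CPM in the 5XFAD library and 54.1 CPM in the WT library, and cluster 11, left unnamed and led by Cd7 and Klra7, had 118 and 120 CPM (5XFAD and WT libraries).

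The innate lymphoid clusters were far apart from each other. ILC3-like cluster 16, led by Il22, had 240.0 CPM in the 5XFAD library (168 to 332, 25 cells) and 300.3 CPM in the WT library (207 to 422, 17 cells). The top cell of cluster 16 gave 16 of its 36 Cxcr4 UMIs in the 5XFAD library and 11 of 33 in the WT library. The intervals for this cluster, also in its ratio below, do not allow for such unevenness between cells. ILC2-like cluster 9, led by the type 2 cytokine genes Il5 and Il13, had 57.5 CPM in the 5XFAD library (41.6 to 77.5) and 95.6 CPM in the WT library (73.8 to 122). The log2 ratio of cluster 16 to cluster 9 was 2.06 (1.38 to 2.73) in the 5XFAD library and 1.65 (1.0 to 2.28) in the WT library. NK or ILC1-like cluster 12 lay between them, at 106 CPM in the 5XFAD library and 154 CPM in the WT library. Cluster 15 held macrophage, epithelial and stromal markers together and was left unnamed; it had 215 CPM in the 5XFAD library and 217 CPM in the WT library.

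RNA set free from B cells could add Cxcr4 UMIs to other cells, so the 7 B cell markers were summed in each non-B cluster. In clusters 8 to 14 and 16 they reached 0.64% to 1.62% of the B cell level in the 5XFAD library and 1.52% to 5.67% in the WT library. At that share B cell RNA would carry at most 3.4 CPM of Cxcr4 in the 5XFAD library and 15.6 CPM in the WT library. That is up to 5.27% of a cluster's Cxcr4 level in the 5XFAD library, in cluster 14, and up to 17.5% in the WT library, in cluster 13. Doublets were not called, and cells holding RNA of 2 types were not removed.

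The ligand and the partner receptor were hardly captured in this sort. Cxcl12 had 639.8 CPM in cluster 15 of the 5XFAD library and 45.3 CPM in that cluster of the WT library, and in every other cluster of either library at most 4.9 CPM. Ackr3, a scavenging receptor for CXCL12, reached 26.7 CPM at most, in cluster 16 of the 5XFAD library. Cd74, the invariant chain that also binds the cytokine MIF together with CXCR4, had 12135 CPM in B cells of clusters 0 to 5 in the 5XFAD library and 10533 CPM in the WT library. Arrb1 and Arrb2, which encode the beta arrestins, were higher in clusters 8 to 14 and 16 (20.1 and 33.0 CPM in the 5XFAD library, 24.8 and 41.5 CPM in the WT library) than in B cells of clusters 0 to 5 (4.52 and 7.43 CPM in the 5XFAD library, 9.39 and 10.8 CPM in the WT library). Rgs1, a brake on G protein signalling, showed the same contrast, at 1089 CPM against 16.6 CPM in B cells in the 5XFAD library and 995 CPM against 39.1 CPM in the WT library.

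Shares of cells with a Cxcr4 UMI were taken after thinning each cell to 3000 UMIs, leaving out 37 5XFAD and 84 WT B cells that were shallower. Among B cells of clusters 0 to 5, 42.2% of 2327 cells had a Cxcr4 UMI in the 5XFAD library (Clopper-Pearson 40.2% to 44.2%) and 48.2% of 2454 cells in the WT library (46.2% to 50.2%). Unthinned shares were 56.3% in the 5XFAD library and 62.8% in the WT library. Cluster 5 had 58.1% in the 5XFAD library (48.6% to 67.2%) and 68.2% in the WT library (63.3% to 72.9%). ILC2-like cells of cluster 9, deeper than B cells, had 10.9% in the 5XFAD library and 17.9% in the WT library at the same depth. Cells with at least 2 Cxcr4 UMIs were 34.2% (5XFAD library) and 42.0% (WT library) of cluster 5, against 14.4% and 17% of clusters 0 to 4.

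Cells without a Cxcr4 UMI were common even where the level was high. If all thinned B cells carried the mean number of Cxcr4 UMIs with Poisson scatter alone, 52.9% of 5XFAD and 43.2% of WT cells would have had 0; the measured shares were 57.8% and 51.8%. The variance of the UMI number over its mean was 1.34 in the 5XFAD library and 1.63 in the WT library. In cluster 4 of the 5XFAD library, where that ratio was 1.1, 55.5% of cells had 0 against 53.7% under the same Poisson scatter. At this depth, a cell without a UMI was not shown to lack the transcript.

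**Figure D2:**
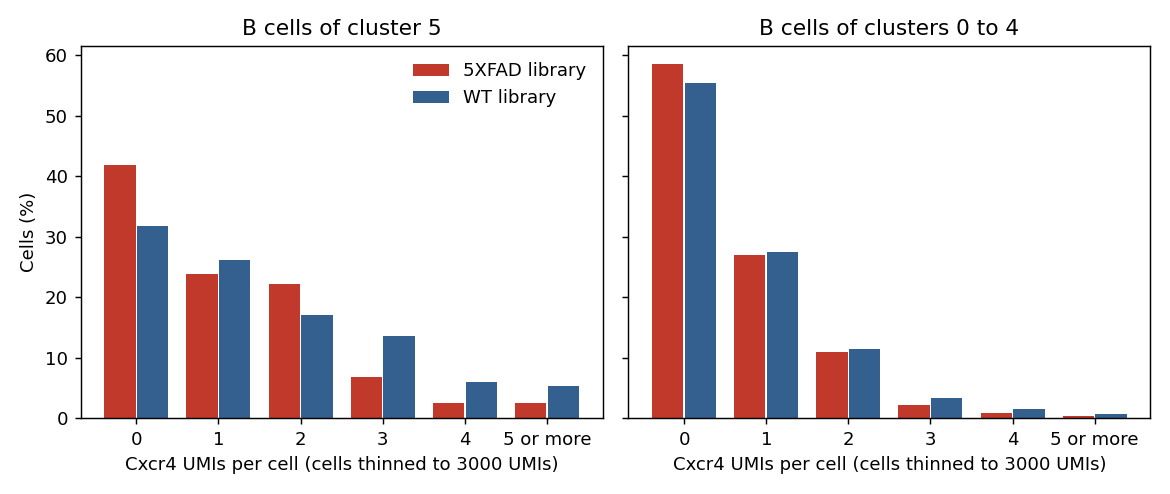
Percent of B cells (y axis) by their number of Cxcr4 UMIs after thinning to 3000 UMIs (x axis), in cluster 5 (left) and clusters 0 to 4 (right); the left bar of each pair is the 5XFAD library, the right bar WT. In cluster 5 41.9% of 5XFAD and 31.8% of WT cells had 0 UMIs, against 58.6% and 55.5% in clusters 0 to 4.

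Between genotypes, Cxcr4 in B cells was lower in the 5XFAD library, at 210.0 CPM (202 to 218) against 274 CPM (265 to 284) in the WT library. The log2 ratio of 5XFAD over WT was -0.39 (-0.46 to -0.31). The median of the 9681 genes with at least 50 UMIs was -0.12, and 27.6% of them had a ratio as low or lower. Past log2 0.5 in size, 6.95% of those genes were higher and 19.8% lower in the 5XFAD library; Cxcr4 was not past it. Cluster 5 was 5.03% of B cells in the 5XFAD library and 15.6% in the WT library, and held 9.57% and 27.5% of their Cxcr4 UMIs. Without cluster 5 the ratio was -0.22 (-0.30 to -0.14), and 40.8% of genes were as low or lower. The leading genes of cluster 5 can be induced when tissue is dissociated (Hspa1a 571 CPM and Jun 1730 CPM there in the WT library), and the part of this in the ratio was not tested.

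Within single B cell clusters the difference was uneven. The log2 ratio was -0.32 in clusters 0 and 1 and -0.31 in cluster 5, with intervals below 0 in each. It was -0.20 (-0.41 to 0.02) in cluster 3, -0.00 (-0.19 to 0.19) in cluster 2 and 0.05 (-0.18 to 0.28) in cluster 4. Clusters 6 and 7 gave 0.28 (-0.00 to 0.57) and -0.03 (-0.37 to 0.31).

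Outside B cells the summed T and innate lymphoid clusters 8 to 14 and 16 did not differ beyond counting error, at 119 CPM in the 5XFAD library and 122 CPM in the WT library (log2 ratio -0.03, -0.22 to 0.15). ILC2-like cluster 9 had a ratio of -0.73 (-1.32 to -0.16) from 43 UMIs in the 5XFAD library and 65 in the WT library; 13.3% of genes measured in that cluster were past -0.5. NK or ILC1-like cluster 12 had -0.55 (-1.06 to -0.03), with 14.3% of genes past -0.5. The top WT cell of cluster 9 held 11 of the 65 UMIs, and the top 5XFAD cell of cluster 12 held 11 of 59. The intervals do not allow for such unevenness between cells. Gamma delta T cell-like cluster 13 went the other way, at 1.06 (0.23 to 1.97), resting on 52 UMIs in the 5XFAD library and 16 in the WT library, and 12.5% of its genes were past 0.5. The ratios of clusters 8, 10, 11, 14 and 15 lay between -0.49 and 0.43 with intervals that included 0, and cluster 16 had too few WT cells for a ratio.

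**Figure D3:**
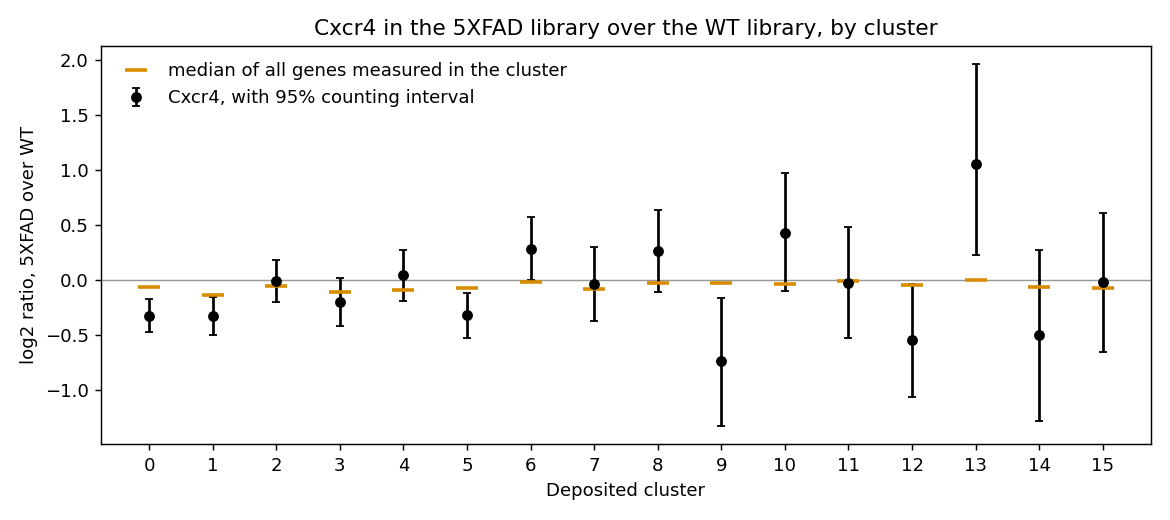
Log2 ratio of Cxcr4 in the 5XFAD library over the WT library (y axis) by cluster (x axis); black points carry 95% counting intervals, and orange dashes give the median of all genes measured in the cluster. Intervals lie below 0 in clusters 0, 1, 5, 9 and 12 and above 0 in cluster 13; no test between genotypes was possible.

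Genes that act around the receptor were read in the B cells of clusters 0 to 5, against the 6.95% higher and 19.8% lower over all genes. The unequal share of cluster 5 enters these ratios too, and its part in them was not tested. Of 7 measured RGS proteins, which shorten G protein signals, 4 were lower past log2 0.5 in the 5XFAD library and 0 higher, with a list median of -0.58. Rgs1 had 16.6 CPM in the 5XFAD library against 39.1 in the WT library (log2 -1.24), and Rgs2 had 149 against 223 CPM (-0.58). Among 27 genes of inhibitory G proteins and their effectors, 7 were lower and 1 higher, not far from the shares over all genes, with a median of -0.26. The lower ones included Vav1 (-0.97) and Dock2 (-0.59), exchange factors for Rac GTPases, and Pik3cd (-0.84), a PI3-kinase catalytic subunit; the higher one was Gng5 (0.60), a G protein gamma subunit. Of 15 genes of receptor desensitisation and endocytosis, 3 were lower, near the share over all genes, and the median was -0.29. Among the lower ones were Arrb1 (-1.05) and Arrb2 (-0.54), from low levels of 4.52 to 10.8 CPM. Grk2, the kinase that phosphorylates active receptors, had -0.38. Other chemokine and egress receptors moved both ways, 2 higher (S1pr4, at 0.63, among them) and 3 lower (Gpr174 -0.85, Cnr2 -0.75 and Gpr18 -0.53) of 11. Mif, a cytokine that binds CXCR4, was at 247 CPM in the 5XFAD library and 173 CPM in the WT library (log2 0.52).

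B cells with a Cxcr4 UMI were then set against B cells without one, within each library, after the same thinning. There were 982 cells with and 1345 without in the 5XFAD library, and 1183 with and 1271 without in the WT library. Depth before thinning was alike, with medians of 5117 UMIs with and 5113 without in the 5XFAD library and 4743 with and 4906 without in the WT library. Cluster make-up was not: cluster 5 was 6.92% of cells with and 3.64% of cells without in the 5XFAD library, and 22.0% with and 9.52% without in the WT library. Cluster 1 was less frequent among cells with a UMI, at 22.0% against 31.7% in the 5XFAD library and 15.5% against 21.7% in the WT library.

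Few genes differed strongly. Of 7254 genes with at least 50 thinned UMIs in each library, 14 (0.193%) were higher and 16 (0.221%) lower by log2 0.5 or more in both libraries. Of these calls 1 higher and 0 lower had 200 UMIs or more, and few recurred: a second random draw of the thinning called 16 and 17 genes, of which 1 and 0 were the same. Counts averaged over 20 draws, an alternative chosen after seeing the data, left 3 higher and 3 lower (0.0414% each of 7249 genes). The higher ones were Jun, Coro2a and Wdr47, and the lower ones Ctps, Rasd1 and Srm, named here after their values were seen. Of these only Jun had 200 or more UMIs in each library. Coro2a, Wdr47, Ctps and Rasd1 had 52 to 95.1 UMIs in the 5XFAD library and 58 to 140 in the WT library. Averaging over draws does not remove counting error. Among the 3686 genes with 200 or more UMIs in each library, the 20-draw mean was past 0.25 in both libraries for 23 higher and 11 lower genes. With 2 libraries the smallest two-sided p of an exact sign-flip test is 0.5, so ratios are given as sizes, from the 20-draw mean unless stated otherwise. Across genes, not independent replicates, the ratios of 1 draw in the 2 libraries had a Pearson r of 0.09 (n = 7254), and of 0.29 over the 1617 genes with at least 500 UMIs.

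Among well-counted genes, the migration receptor genes S1pr1, Gpr183 and Ccr7 were higher in B cells with a Cxcr4 UMI in both libraries. S1pr1, the egress receptor, had 268 CPM in cells with and 218 CPM in cells without a Cxcr4 UMI in the 5XFAD library, and 307 with and 228 without in the WT library. The log2 ratios were 0.30 and 0.43 (5XFAD and WT libraries), and 0.27 and 0.35 when cells were compared only within their own cluster. Gpr183, the oxysterol receptor that guides B cells to follicle borders, had 257 CPM with and 228 without in the 5XFAD library, and 363 with and 230.1 without in the WT library. Its ratio was 0.17 in the 5XFAD library and 0.66 in the WT library (0.17 and 0.42 within clusters). In clusters 0 to 4 alone the Gpr183 ratio was 0.05 in the 5XFAD library and 0.41 in the WT library. Ccr7, the receptor for T zone chemokines, gave 0.14 in the 5XFAD library and 0.33 in the WT library (0.15 and 0.27 within clusters). Gpr18 gave 0.16 and 0.25, and Cnr2 0.15 and 0.17.

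Not all receptors of the list shared that direction. Cxcr5, the receptor for entry into follicles, had a ratio of -0.14 in the 5XFAD library and 0.08 in the WT library. Ccr6, the receptor for CCL20, gave -0.06 and -0.22. Over all 11 measured receptors of this list 5 were higher and 2 lower in both libraries, with medians of 0.12 in the 5XFAD library and 0.17 in the WT library. Over all 7249 genes 26.6% were higher and 30.2% lower in both, with medians of -0.00 and -0.01. Within clusters 7 of the 11 were higher and 0 lower, beside 25.1% and 28.3% of all genes.

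The FOXO target genes, a list of genes that FOXO1 and FOXO3 are known to activate, leaned the same way. Of the 16 measured members 15 were higher and 0 lower in both libraries (all genes 26.6% and 30.2%), with medians of 0.14 in the 5XFAD library and 0.19 in the WT library. Within clusters 10 were higher and 1 lower, with medians of 0.11 and 0.14. Btg1, an antiproliferative gene and the best counted member, had 2187 CPM with and 1988 without in the 5XFAD library, and 2046 with and 1705 without in the WT library. Irs2, an insulin receptor substrate, gave 0.18 in the 5XFAD library and 0.39 in the WT library, and Cdkn1b, a brake on the cell cycle, 0.27 and 0.19. Klf2, a factor that drives S1pr1, gave 0.15 and 0.64 in all B cells but 0.09 and 0.26 within clusters; it was picked after its values were seen. S1pr1 and Ccr7 stand in both lists, so the lists are not separate counts. This list was chosen with earlier results of these data known.

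Smad7, an inhibitor of TGF-beta signalling, had 147 CPM with and 112 without in the 5XFAD library, and 285 with and 219 without in the WT library (log2 0.39 and 0.38, and 0.32 and 0.23 within clusters). Trim59 had 49.2 CPM with and 36.7 without in the 5XFAD library and 66.6 with and 53.5 without in the WT library, and Rhob, a small GTPase, had ratios of 0.38 and 0.58. Dnajb9, an endoplasmic reticulum chaperone, gave 0.31 and 0.40, and Cat, encoding catalase, 0.48 and 0.31. Tagap gave 0.27 in the 5XFAD library and 0.71 in the WT library. With Jun, Btg1, Hspa1a and Hspa1b these are the 10 genes named as higher by the size of their interval bound. Of the 10, Cat and Tagap were above 0 in 19 of 20 draws in the 5XFAD library and in all 20 in the WT library, and the other 8 in all 20 draws of both. The draws thin the same cells from which the genes were picked. They are not replicates, and their sameness of sign measures draw noise only. Among the receptors above, Gpr18 was above 0 in 19 draws of each library, and Cnr2 in 15 (5XFAD library) and 16 (WT library).

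**Figure D4:**
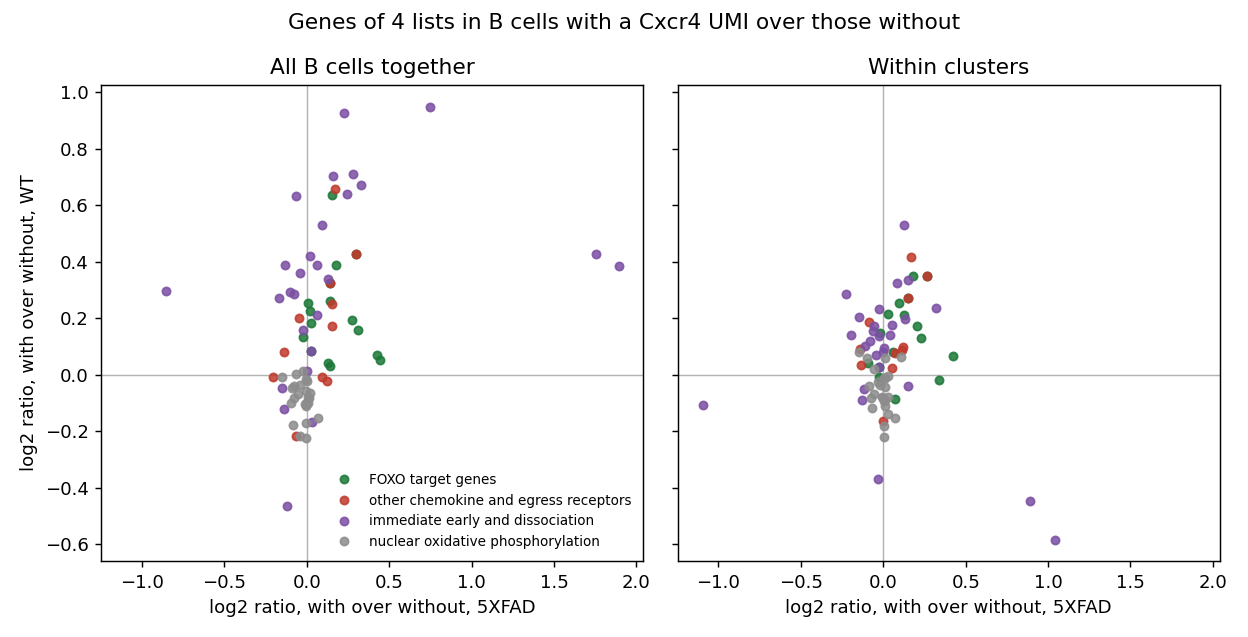
Log2 ratio of B cells with over without a Cxcr4 UMI, mean of 20 thinning draws, in the 5XFAD library (x axis) and the WT library (y axis); each point is a gene of 1 of 4 lists, over all B cells (left) and within clusters (right). FOXO target genes lie mostly right of and above 0 in both panels, while Hspa1a and Hspa1b, far right, fall below 0 on the WT axis within clusters.

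Level and number of Cxcr4 UMIs moved together for several of these genes, though not all, even without cluster 5. Several were picked by comparing the same cells with and without a UMI. The step from 0 to 1 UMI is part of that comparison and not separate from it. In clusters 0 to 4 of the 5XFAD library S1pr1 had 214 CPM in cells with 0 Cxcr4 UMIs, 243 with 1, 281 with 2 and 309 with 3 or more. In the WT library the same steps gave 222, 270.0, 289 and 360 CPM. Btg1 stepped through 1951, 2113, 2159 and 2272 CPM in the 5XFAD library and 1682, 1817, 2059 and 2370 CPM in the WT library. Gpr183 stepped clearly in the WT library (204, 244, 279 and 394 CPM) and less in the 5XFAD library (219, 218, 238 and 262 CPM). Jun was at 38.6, 40.7, 51.5 and 67.7 CPM in the 5XFAD library and 167, 189, 224 and 310.5 CPM in the WT library, so that every WT step was above every 5XFAD step. Nop58 went the other way, at 207, 163, 154 and 146 CPM in the 5XFAD library and 145, 139.8, 126 and 94.4 CPM in the WT library. Ccr7 and Fbl turned at the last step in both libraries. Ccr7 was at 545, 582, 623 and 590 CPM in the 5XFAD library and 601, 667, 752 and 724 CPM in the WT library. Fbl was at 115, 100, 79.6 and 87.6 CPM in the 5XFAD library and 119, 102, 96.4 and 103 CPM in the WT library. Within cluster 5, S1pr1 stood at 324, 327, 383 and 461 CPM in the 5XFAD library and 297, 333, 402 and 425 CPM in the WT library, over the same steps. Gpr183 also rose at each step in cluster 5, at 460, 588, 627 and 718 CPM (5XFAD library) and 490, 526, 719 and 861 CPM (WT library). Btg1, Smad7 and Nop58 did not keep their steps in cluster 5 of the 5XFAD library. The groups there held 48.9, 25.3, 19.6 and 23.4 cells on average over the draws. Btg1 was at 2987, 2818, 2776 and 2817 CPM there, Smad7 at 233, 232, 231 and 163 CPM, and Nop58 at 129, 116, 189 and 157 CPM.

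The 10 genes named as lower in cells with a Cxcr4 UMI were Fbl, Nop58, Ddx21, Eif4a1, Eif2s2, Syngr2, Isca1, Ginm1, Dusp2 and Rab20. Fbl, the methyltransferase fibrillarin of the nucleolus, had 92.3 CPM with and 113 without in the 5XFAD library, and 97.1 with and 116 without in the WT library (log2 -0.30 and -0.26). Nop58, its partner in small nucleolar ribonucleoproteins, had 159 CPM with and 204 without in the 5XFAD library, and 119 with and 140 without in the WT library (-0.36 and -0.23). Ddx21, a nucleolar helicase, gave -0.16 and -0.30, and the translation factors Eif4a1 and Eif2s2 gave -0.21 and -0.31, and -0.16 and -0.10. Within clusters all 5 were nearer to 0: Fbl stood at -0.23 and -0.20, Nop58 at -0.28 and -0.09, Ddx21 at -0.09 and -0.19, Eif4a1 at -0.11 and -0.23, and Eif2s2 at -0.10 and -0.02. Ccnd2, the cyclin D2 gene and a member of the light zone and B cell activation list, had -0.62 and -0.30. That list as a whole was balanced, with 2 of 14 measured genes higher and 2 lower in both libraries (all genes 26.6% and 30.2%). Its medians were 0.04 in the 5XFAD library and -0.03 in the WT library.

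Syngr2 gave -0.18 and -0.29, Isca1, an iron-sulphur cluster assembly gene, -0.24 and -0.28, and Ginm1 -0.38 and -0.30. Dusp2, a phosphatase of MAP kinases, gave -0.15 and -0.05, and Rab20 0.04 and 0.21, so that its lower level in a single draw was not kept. Of the 10 named as lower, 7 were below 0 in every draw of both libraries, again a measure of draw noise only. Cytosolic ribosomal protein genes were nearly level, with medians of -0.01 in the 5XFAD library and -0.02 in the WT library. Of these genes 10 of 22 were lower and 1 higher in both (all genes 30.2% and 26.6%). Genes of nuclear oxidative phosphorylation had medians of -0.01 and -0.08, with 17 of 25 lower and 0 higher in both (all genes 30.2% and 26.6%). Within clusters 8 of the 25 were lower and 2 higher (all genes 28.3% and 25.1%), with medians of 0.00 and -0.07.

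**Figure D5:**
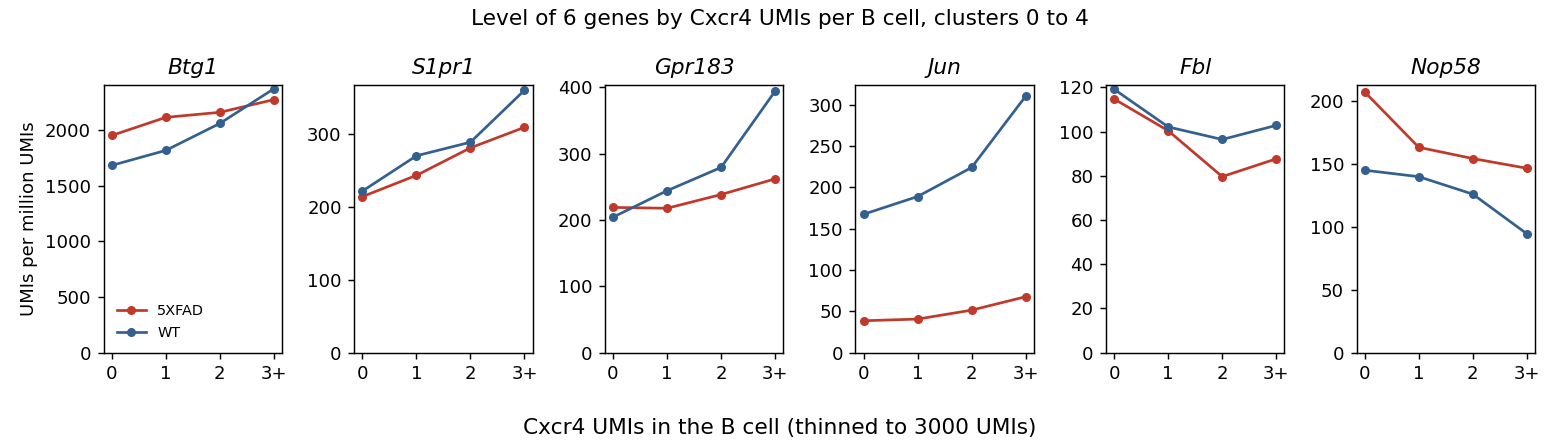
Level in CPM (y axes, each from 0) of 6 genes in B cells of clusters 0 to 4 by the number of Cxcr4 UMIs in the cell (x axes), mean of 20 thinning draws, 5XFAD red and WT blue. Btg1 and S1pr1 are higher at each step in both libraries, while Nop58 is lower at each step.

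For heat shock and immediate early genes the comparison changed once it was made within clusters. Hspa1a, the inducible HSP70 gene, had 32.1 CPM with and 8.64 without in the 5XFAD library, and 132 with and 101 without in the WT library. Within clusters its ratio was 1.04 in the 5XFAD library and -0.58 in the WT library, so its direction in the WT library reversed. Without cluster 5 it reversed in both, at -0.43 in the 5XFAD library and -0.58 in the WT library, from levels of 1.09 to 3.79 CPM in the 5XFAD library. Inside cluster 5 alone, in 1 draw, it was 0.71 (0.10 to 1.35) in the 5XFAD library and -0.46 (-0.69 to -0.23) in the WT library. Its near-identical copy Hspa1b, with which reads can be shared, reversed likewise, at 0.89 in the 5XFAD library and -0.45 in the WT library within clusters and at -1.22 and -0.37 without cluster 5. Jun had 96.8 CPM with and 57.7 without in the 5XFAD library, and 570 with and 295 without in the WT library. Its ratios of 0.75 and 0.95 came down to 0.32 and 0.24 within clusters. Of 27 measured immediate early and dissociation genes 14 were higher and 3 lower in both libraries (all genes 26.6% and 30.2%). The medians were 0.02 in the 5XFAD library and 0.36 in the WT library, and -0.03 and 0.14 within clusters. Egr1, induced by B cell receptor signals and picked after its values were seen, was apart, at -0.86 in the 5XFAD library and 0.30 in the WT library.

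Genes of the receptor's own pathway differed little. The 26 measured genes of inhibitory G protein signalling had medians of 0.00 in both libraries. Of them 6 were higher and 5 lower in both (all genes 26.6% and 30.2%). Grk2 gave 0.10 in the 5XFAD library and 0.16 in the WT library, and Itch, picked afterwards, 0.03 and -0.07. Rgs2 gave 0.20 and 0.30 (0.18 and 0.17 within clusters), and Rgs1 0.14 and 0.89 (-0.01 and 0.49 within clusters) from a low level of 16.2 to 52.4 CPM. Cd74 and Mif were nearly level, at -0.01 and -0.05 and at -0.09 and -0.09. The NF-kB list had medians of -0.08 and -0.02, with 1 of 12 higher and 6 lower in both (all genes 26.6% and 30.2%).

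The same split was made, in 1 draw, in the T and innate lymphoid clusters 8 to 14 and 16, where cluster make-up also enters. S1pr1 had ratios of 0.05 (-0.41 to 0.50) in the 5XFAD library and 0.08 (-0.48 to 0.61) in the WT library there, and Gpr183 -0.11 (-0.32 to 0.11) and 0.12 (-0.13 to 0.37). Btg1 gave 0.04 (-0.05 to 0.12) and 0.01 (-0.10 to 0.12), against 0.16 (0.11 to 0.21) and 0.28 (0.23 to 0.33) in B cells in the same draw. Trim59 was higher in these cells too, at 1.60 (0.65 to 2.54) in the 5XFAD library and 1.04 (0.31 to 1.75) in the WT library. Cd74, a B cell transcript, was also higher, at 0.42 (0.12 to 0.72) and 0.84 (0.60 to 1.08), and the part of B cell RNA in these ratios was not tested.

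Over the 16 clusters with at least 20 cells in each library, Bmp2k, Cd83, Ptprj, Dennd5b and Txndc5 had the pattern most like Cxcr4 among 9480 genes, by the lower of the Pearson correlations of log2(CPM + 1) in the 2 libraries. Bmp2k, a kinase gene, had r = 0.90 in the 5XFAD library and 0.88 in the WT library. It did not share the high level of cluster 5. Bmp2k had 159 CPM there and 160 CPM in clusters 0 to 4 of the 5XFAD library, and 196 and 202 CPM in the WT library. Ptprj was lower in cluster 5 than in clusters 0 to 4 in both libraries, and Cd83, Dennd5b and Txndc5 were higher. Cd83, a marker of activated B cells, had r = 0.84 and 0.90, with 1079 CPM in cluster 5 and 38.8 CPM in cluster 9 of the 5XFAD library, and 1311 and 50 CPM in those clusters of the WT library. Clusters share library, depth and the split between B and other cells, so these are descriptions with no p. None of the 5 was among the first 5 with clusters of at least 50 cells or with Spearman's correlation, although their correlations there were 0.73 to 0.91.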

How the data were processed

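Single-cell 3′ RNA-seq libraries of sorted live CD45+ colon cells were analysed, 1 pooled library per genotype. Cell Ranger 6.0.1 and mm10 are named in the submitters' processing notes; the sources used here do not give later filters. Values in the main deposited table are natural log values of 1 + UMIs per 10000 UMIs of the cell, and a deposited SCT table of natural log values was an alternative only. Deposited metadata give counts of UMIs and genes per cell, the percent of mitochondrial UMIs, the library (AD, taken as 5XFAD, or WT) and the cluster. Counts were recovered by inverting the log: 100% of 11758401 nonzero values were whole within 1e-06, and totals matched the deposited counts in 6886 of 6886 cells. Since the deposited unit is a log value and each genotype has 1 library, no count model was run.

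Levels are CPM with exact Poisson intervals, ratios have exact conditional binomial intervals and shares have Clopper-Pearson intervals, at 95% and for counting error only. Cells were thinned without replacement to 3000 UMIs. Genes needed 50 UMIs. Within-cluster ratios are Mantel-Haenszel ratios over clusters 0 to 5. Clusters were named from marker lists. The member, lists and tests were chosen with earlier results of these data known. Genes named between cells with and without a Cxcr4 UMI are the 10 higher and 10 lower whose interval bound nearest no change, in the worse library, lay farthest from it, leaving out immunoglobulin and T cell receptor segments, ribosomal protein, mitochondrial, Gm-numbered, Rik and sex-linked genes, plus members of the lists. The comparison was tested on simulated cells with Poisson scatter alone, no clusters and planted changes larger than most ratios given here. That run does not show how well smaller changes in real cells are found. Alternatives were other scalings, thinning depths, filters, thresholds and cell sets. Python 3.11.15, numpy 2.4.6, scipy 1.17.1, pandas 2.3.3 and matplotlib 3.10.9 were used. Some genes counted in the lists are not reported here by name.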

Additional observations from a re-analysis of the deposited data

Results flagged for a closer look

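The log2 ratio of Cxcr4 in the 5XFAD library over the WT library pointed in opposite directions in different clusters. Gamma delta T cell-like cluster 13 was higher in the 5XFAD library (1.06). B cell clusters 0 (-0.32), 1 (-0.32) and 5 (-0.31), ILC2-like cluster 9 (-0.73) and NK or ILC1-like cluster 12 (-0.55) were lower, each with a counting interval that did not include 0. The difference between clusters was not tested, since each cluster has 1 library per genotype. Cluster 13 rests on 52 Cxcr4 UMIs in the 5XFAD library and 16 in the WT library. In cluster 9 the top WT cell held 11 of 65 Cxcr4 UMIs, and in cluster 12 the top 5XFAD cell held 11 of 59. Counting intervals take each UMI as independent and do not allow for this.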

How the results depend on the processing

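The B cell log2 ratio stayed negative in every setting run, at -0.26 with median-of-ratios scaling, -0.22 without cluster 5 and -0.22 with equal cluster make-up. Without cluster 5 the B cell level was 199 CPM in the 5XFAD library and 232 CPM in the WT library; weighting each WT cell equally gave 288 CPM. The share of B cells with a Cxcr4 UMI in the 5XFAD library was 32.1% after thinning to 2000 UMIs, 49.8% at 4000 UMIs and 56.3% without thinning, and 15.4% had 2 or more. In the WT library these were 38.3%, 57.2%, 62.8% and 20.9%, and 44.5% without cluster 5. Genes higher and lower with a Cxcr4 UMI numbered 3 and 3 over 20 draws, 45 and 47 for at least 2 UMIs against 0, 231 and 182 past 0.25, 0 and 0 past 1, 63 and 64 with at least 20 UMIs, and 1 and 0 with at least 200; 25 were higher at 4000 UMIs. Of the 5 most similar genes 0 stayed first with clusters of 50 cells and 0 with Spearman's correlation. In the single draw, direction reversed within clusters in the WT library for Dnajb1 (-0.0421), Hspa1a (-0.58), Hspa1b (-0.50) and Ighm (-0.0198); over 20 draws Dnajb1 was 0.14 there. Without cluster 5 it reversed, in the single draw, for Hspa1a (-2.08 in 5XFAD, -0.80 in WT) and Hspa1b (-1.50 in 5XFAD, -0.52 in WT); the 20-draw means were -0.43 and -0.58, and -1.22 and -0.37. At 4000 UMIs it reversed for 2310039H08Rik (0.0438, 5XFAD), Rin3 (-0.25, 5XFAD) and Gm15446 (-0.14, WT). With a second draw it reversed in the WT library for Dusp2 (0.00295) and Rab20 (0.24). Rab20 reversed also without thinning (0.20 in 5XFAD, 0.15 in WT) and over 20 draws (0.0362 in 5XFAD, 0.21 in WT). Draw noise moves thinly counted genes most; for other settings the cause was not tested. No paired analysis was possible because each genotype has 1 library.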
